A study of Homo sapiens with 17 samples.

Results

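Transcripts of 10 enzymes of serine synthesis, folate one-carbon metabolism and asparagine synthesis (PHGDH, PSAT1, PSPH, SHMT1, SHMT2, MTHFD1, MTHFD2, MTHFD1L, ALDH1L2 and ASNS) were followed in Ishikawa cells across every treatment group sequenced. The genes were chosen by name and found by matching the gene identifier of each row of the count table to its GENCODE symbol. They are 10 of the 60662 genes in the table, and all 10 passed the filter on low counts in every comparison.

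Serine is made from an intermediate of glycolysis by PHGDH, PSAT1 and PSPH acting in turn. The serine hydroxymethyltransferases, SHMT1 in the cytosol and SHMT2 in mitochondria, move a carbon unit from serine to tetrahydrofolate and leave glycine. MTHFD1 in the cytosol and MTHFD2 and MTHFD1L in mitochondria then oxidise or release that unit for nucleotide and methyl group synthesis. ALDH1L2, also in mitochondria, is a formyltetrahydrofolate dehydrogenase. ASNS makes asparagine from aspartate with glutamine as the nitrogen donor. PHGDH, PSAT1, SHMT2, MTHFD2 and ASNS are well known as genes whose transcription rises through the factor ATF4 when amino acids are short or the endoplasmic reticulum is stressed.

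Ishikawa cells are an established line from a human endometrial adenocarcinoma, used as a stand-in for endometrial epithelium, and all cultures had the same medium with charcoal-stripped serum. RNA was sequenced from 17 cultures. Controls (n = 3) had medium alone. Vehicle controls (n = 3) are titled Nap EtOH, with a treatment label that names 70% ethanol for 24 h, and Nap only cultures (n = 2) had Nap for 24 h. Nap is not defined in the labels. P4 treated cultures (n = 3) had Nap and progesterone (P4) for 24 h, with no ethanol named in their labels. Whether they had ethanol is not known, so P4 and a possible lack of ethanol cannot be told apart in the comparison with vehicle controls. Sources give the P4 concentration inconsistently, and it is left out here. Another 6 cultures had recombinant human PSAT1 for 24 h, the protein made by a member of this gene set, and 3 of them also had P4. Which 3 is in dispute. The columns of the count table named PSAT1_P4 belong to samples titled PSAT1, and the columns named PSAT1 to samples titled PSAT1_P4. Both sources keep the same 3 cultures together, so the sets are named here by their columns, as columns PSAT1 (n = 3) and columns PSAT1_P4 (n = 3), and neither is called P4 treated.

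Total counts were between 4999521 and 19704493, and vehicle control replicate 1 was the shallowest. The floor of 3 counts lay between 0.152 and 0.600 CPM, and it covers counting error only. Epithelial markers (EPCAM, CDH1, KRT8, KRT18, KRT19, CLDN4) summed to 1249.9 to 1259.8 CPM in vehicle controls and 965 to 1107 CPM in P4 treated cells. Endothelial markers (PECAM1, CDH5, VWF) summed to 0.172 to 1.60 CPM over all libraries, with CDH5 at 0 in each. Leukocyte markers (PTPRC, CD68, CD3E) summed to 0.152 to 1.47 CPM. A stromal list was led by COL1A2 and summed to 417 to 620.4 CPM in controls, 343 to 358 CPM in vehicle controls and 127 to 179 CPM in P4 treated cells, and to 426 to 644 and 129 to 159 CPM in columns PSAT1 and columns PSAT1_P4. DCN and PDGFRB of that list did not exceed 0.323 CPM. The epithelial and stromal sums moved in the same libraries as the enzymes below, and their part in the results was not tested. In bulk RNA, fewer cells of a type and less RNA per cell cannot be told apart.

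Near the start sites of the members, the promoter windows in RefSeq (GRCh38.p14, 250 bases before to 50 bases after a start) were searched on both strands for TGATGNAA, the core of the composite element bound by ATF4 with a C/EBP partner. Windows were found for 7 of the 10 members, and 2 of the 7 held the letters, against 3.62% of 35116 windows and 4.46% of 27305 genes. ASNS was already known as a gene that responds to ATF4, and whether these shares differ was not tested. The matches in ASNS, the member that differed most in level below, and in MTHFD1L are shown with the bases around them. The ASNS stretch is chr7:97872458-97872487 on the minus strand, with the match beginning 68 bases before the start site of its listed transcript. That of MTHFD1L is chr6:150866346-150866375 on the plus strand, with the match beginning 129 bases before the start site of its listed transcript. Both matches lie inside the GENCODE gene spans given below, which begin farther upstream than these start sites. Capitals mark the match, 5′ to 3′ along the strand of the gene.
ASNS: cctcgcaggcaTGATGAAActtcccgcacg
MTHFD1L: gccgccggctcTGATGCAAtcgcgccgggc
A match of letters is a description of the sequence, not a measured site, and the counts hold no data on binding.

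Levels are given as normalised CPM, read counts scaled for library size with TMM factors over the 17 libraries, and levels of different genes are compared only as RPKM, which divides the same value by the exon length of the gene. Differences are log2 fold changes with their standard error (SE) from edgeR, and a gene was called when its adjusted p over all genes tested was under 0.05. On the RPKM scale PSAT1 was the most abundant of the 10 in controls, at 131 ± 9.13 RPKM (SD, n = 3), followed by SHMT2 at 70.3 ± 4.95 RPKM and MTHFD2 at 56.7 ± 4.40 RPKM. PHGDH, PSPH, ALDH1L2 and MTHFD1L lay between 13.1 and 18.3 RPKM, the cytosolic enzymes MTHFD1 and SHMT1 at 6.71 and 6.50 RPKM, and ASNS lowest at 1.09 ± 0.199 RPKM. In P4 treated cells MTHFD2 stood next to PSAT1, at 171 ± 5.35 against 182 ± 30.5 RPKM (SD, n = 3), and the ranges of these neighbours overlapped. ASNS reached 6.68 ± 0.664 RPKM and passed SHMT1, which was last at 3.93 ± 0.369 RPKM. The 10 genes together took 0.148% ± 0.0105 of all counts in controls, 0.130% ± 0.00105 in vehicle controls, 0.239% ± 0.0135 in P4 treated cells, 0.147% ± 0.00443 in columns PSAT1 and 0.238% ± 0.00428 in columns PSAT1_P4 (SD, n = 3 each).

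**Figure D1:**
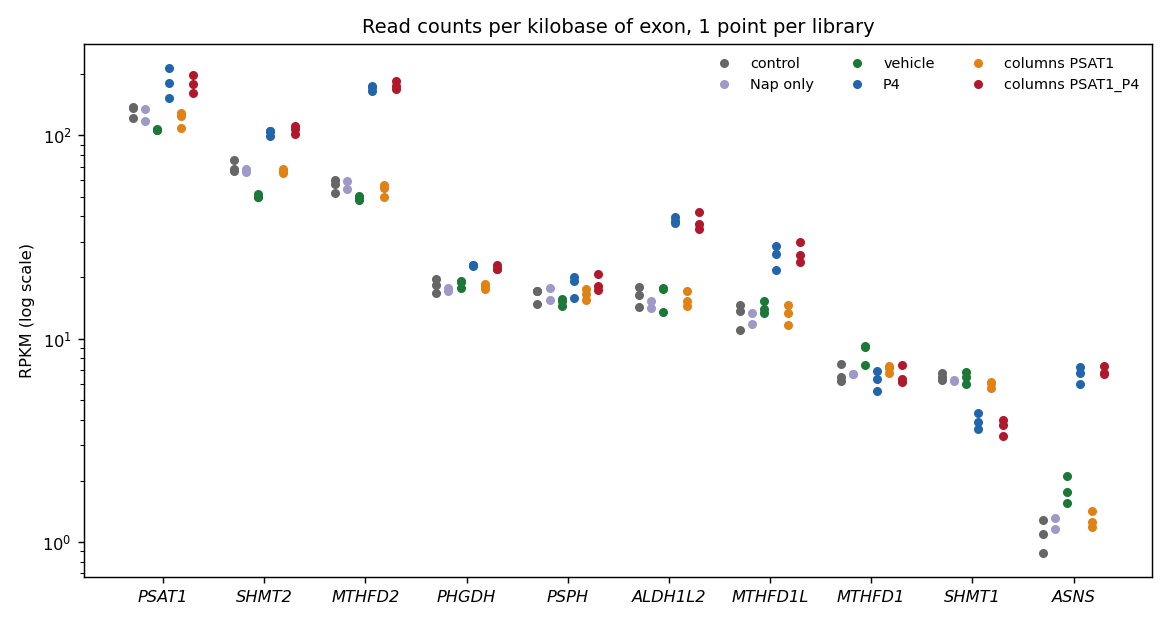
RPKM (log axis) of each of the 10 enzymes in all 17 libraries, 1 point per library, coloured by group and ordered by level in controls. PSAT1, SHMT2 and MTHFD2 lie highest, and ASNS rises from 1.09 RPKM in controls to 6.68 RPKM in P4 treated cells, level with MTHFD1.

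P4 treated cells held more transcript of 8 of the enzymes than vehicle controls and less of SHMT1 and MTHFD1, so that all 10 were called, against 53.0% of the 16540 genes tested (26.6% higher and 26.5% lower). The largest rises were those of ASNS, 3.75-fold, and of MTHFD2, 3.44-fold. Of the hydroxymethyltransferases and folate enzymes among the 10, the mitochondrial SHMT2, MTHFD2, MTHFD1L and ALDH1L2 all rose, while the cytosolic SHMT1 and MTHFD1 fell. The fall of MTHFD1 did not pass against controls or Nap only cultures (edgeR, adjusted p = 0.328 and 0.318). Outside the 10, the split did not hold for cytosolic ALDH1L1, which rose, or mitochondrial GLDC, which fell. The median log2 fold change of the 10 was 0.79, and that of all genes tested -0.013. With so many genes called, the number of members called says less than the sizes below.

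**Figure D2:**
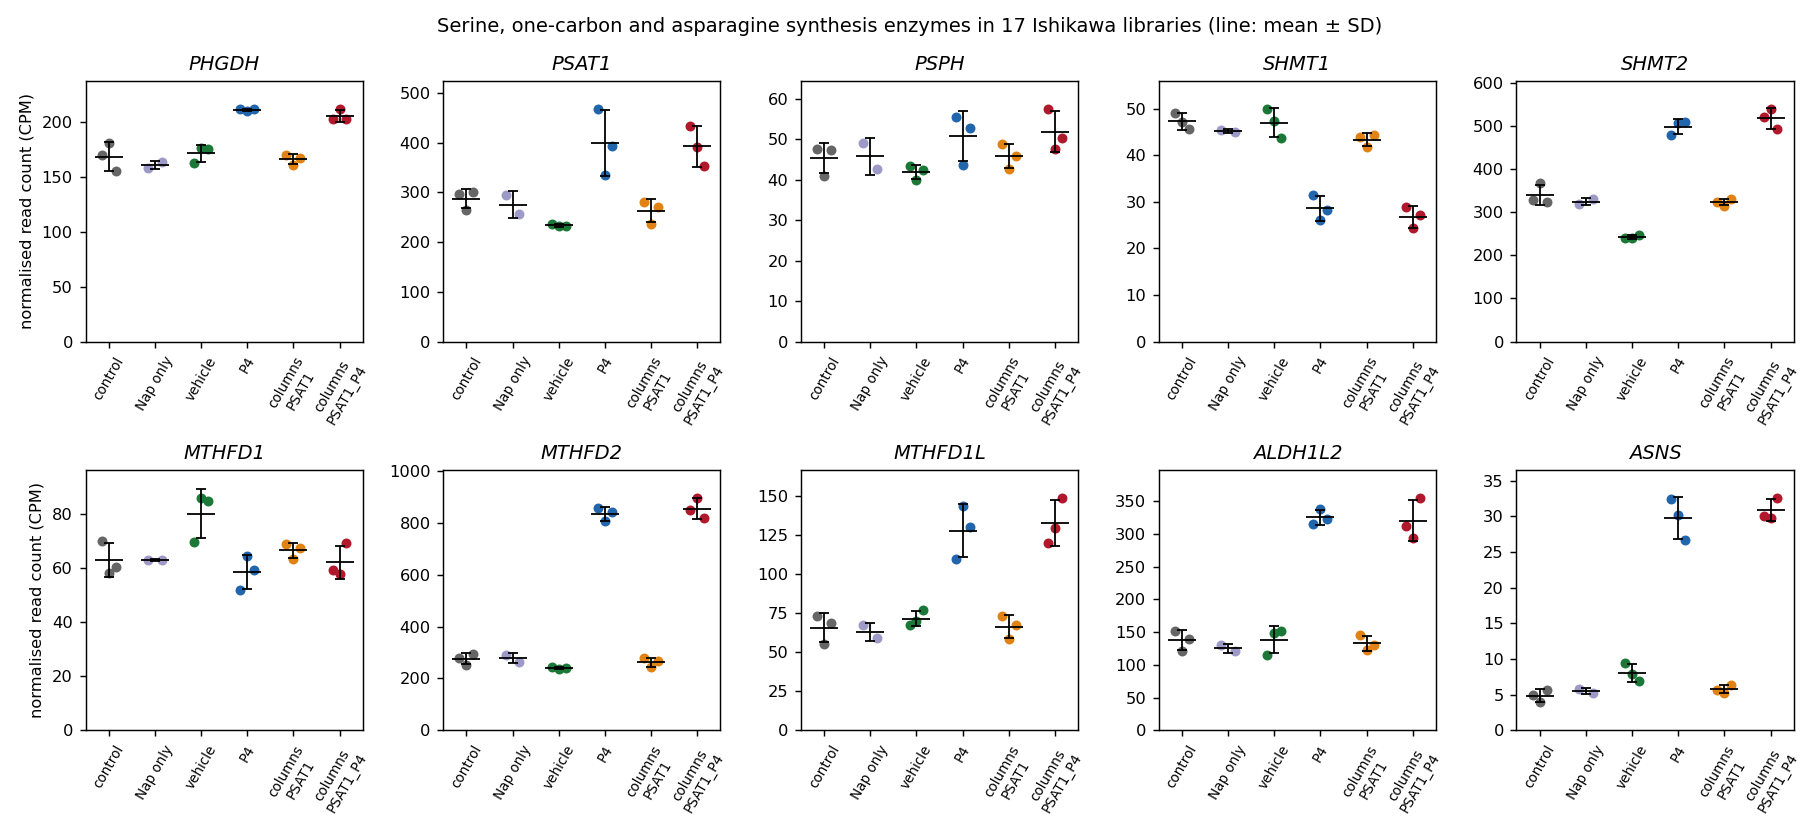
Normalised CPM of each enzyme (vertical axes from 0, 1 panel per gene) in the 17 libraries, with points for libraries and lines for the group mean ± SD (2 or 3 libraries a group). In 8 panels the P4 treated libraries and columns PSAT1_P4 stand together and apart from the other 11 libraries, and in PSPH and MTHFD1 they overlap with them. The share of all genes that stand apart in this way was not counted.

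Of the serine synthesis enzymes, PSAT1 had the largest difference. PSAT1 (ENSG00000135069.14, chr9:78297143-78330093, plus strand of GRCh38), the aminotransferase of the second step, stood at 297, 265 and 301 CPM in the controls, 294 and 257 CPM in the Nap only cultures and 236, 232 and 233 CPM in the vehicle controls. The P4 treated cultures held 468, 335 and 394 CPM, columns PSAT1 281, 237 and 271 CPM and columns PSAT1_P4 434, 390.4 and 353 CPM. Every P4 treated culture exceeded all cultures of the first 3 groups, P4 treated replicate 1 was the highest of the 17 libraries, and the vehicle controls were the lowest and closest together. Against vehicle controls PSAT1 rose 1.69-fold (log2 fold change 0.76 ± 0.10, SE; adjusted p = 4.95e-05), and against controls 1.36-fold (0.45 ± 0.11, adjusted p = 0.00267). Against Nap only the log2 fold change was 0.51 ± 0.13 (adjusted p = 0.00623), and without Nap only replicate 2 it was 0.42 and missed the threshold (adjusted p = 0.1). Its processed pseudogene PSAT1P3, whose counts were 3.60% of those of PSAT1, differed by 0.49 ± 0.15 (SE, adjusted p = 0.0166) between P4 treated cells and vehicle controls.

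PHGDH (ENSG00000092621.12, chr1:119648411-119744226, plus strand), the dehydrogenase that commits carbon to serine, differed less but with little spread. Its levels were 169.8, 181 and 155 CPM in the controls, 159 and 164 CPM in the Nap only cultures, 163, 177 and 176 CPM in the vehicle controls and 212, 210.3 and 212 CPM in the P4 treated cultures. Columns PSAT1 held 170.3, 161 and 167 CPM and columns PSAT1_P4 203, 212 and 203 CPM. The P4 treated cultures lay above all controls, Nap only cultures and vehicle controls, and these 3 groups overlapped. PHGDH rose 1.22-fold against vehicle controls (log2 fold change 0.28 ± 0.062, SE; adjusted p = 0.00209), with 0.30 against controls (adjusted p = 0.00899) and 0.36 against Nap only (adjusted p = 0.00266).

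PSPH (ENSG00000146733.14, chr7:56011051-56051604, minus strand), the phosphatase of the last step, held 47.5, 41.0 and 47.3 CPM in the controls, 48.9 and 42.6 CPM in the Nap only cultures, 43.4, 39.9 and 42.3 CPM in the vehicle controls and 55.5, 43.7 and 52.8 CPM in the P4 treated cultures. In columns PSAT1 it stood at 48.7, 42.7 and 45.9 CPM and in columns PSAT1_P4 at 57.4, 47.7 and 50.3 CPM. P4 treated cultures were just above the vehicle controls and overlapped with the controls and Nap only cultures. The log2 fold change against vehicle controls was 0.27 ± 0.097 (SE, adjusted p = 0.0353), against controls 0.14 ± 0.11 (adjusted p = 0.287) and against Nap only 0.12 ± 0.12 (adjusted p = 0.436). The call against vehicle controls was lost with DESeq2 (adjusted p = 0.0505), with upper-quartile normalisation (log2 fold change 0.18, adjusted p = 0.154), and without vehicle control replicate 1, 2 or 3 or P4 treated replicate 3 (adjusted p = 0.0598, 0.148, 0.0916 and 0.119). The pseudogene PSPHP1 held 10.3% as many counts as PSPH, so its uniquely mapped counts are uncertain.

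The serine hydroxymethyltransferases differed in opposite directions. SHMT2 (ENSG00000182199.11, chr12:57229327-57234935, plus strand), the mitochondrial enzyme, held 329, 367 and 323 CPM in the controls, 318 and 329.9 CPM in the Nap only cultures and 239.9, 240.5 and 248 CPM in the vehicle controls. The P4 treated cultures held 478, 507 and 509 CPM, columns PSAT1 324, 316 and 331 CPM and columns PSAT1_P4 521, 539 and 492 CPM. The vehicle controls were the lowest 3 of all libraries and apart from the controls and Nap only cultures, and the P4 treated cultures lay above all of these. SHMT2 rose by 1.02 ± 0.059 (SE) on the log2 scale against vehicle controls (adjusted p = 6.38e-08), 0.53 ± 0.092 against controls (adjusted p = 1.01e-04) and 0.59 ± 0.079 against Nap only (adjusted p = 1.07e-04).

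SHMT1 (ENSG00000176974.20, chr17:18327860-18363563, minus strand), the cytosolic enzyme, held 49.2, 47.1 and 45.6 CPM in the controls, 45.5 and 44.9 CPM in the Nap only cultures, 49.9, 47.3 and 43.7 CPM in the vehicle controls and 31.5, 26.2 and 28.2 CPM in the P4 treated cultures. Columns PSAT1 held 43.9, 41.8 and 44.4 CPM and columns PSAT1_P4 28.9, 24.3 and 27.2 CPM. All P4 treated cultures lay below all controls, Nap only cultures and vehicle controls. SHMT1 differed by nearly the same amount whatever the reference, by -0.72 ± 0.095 (SE) on the log2 scale against vehicle controls (adjusted p = 4.93e-05), -0.75 ± 0.10 against controls (adjusted p = 9.71e-06) and -0.69 ± 0.11 against Nap only (adjusted p = 3.70e-04). It overlaps SMCR8 on the opposite strand, which held 14884 counts over the 17 libraries against 9023 for SHMT1. Since the strand setting of the counting is not given in the sources used here, reads of the shared stretch cannot be assigned with certainty.

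MTHFD1 (ENSG00000100714.17, chr14:64388031-64463457, plus strand), which carries 3 folate activities in the cytosol, stood at 70.2, 58.2 and 60.5 CPM in the controls, 62.9 and 63.2 CPM in the Nap only cultures, 69.7, 86.1 and 84.9 CPM in the vehicle controls and 52.0, 64.6 and 59.2 CPM in the P4 treated cultures. Columns PSAT1 held 69.0, 63.4 and 67.4 CPM and columns PSAT1_P4 59.5, 57.7 and 69.2 CPM. The vehicle controls held the 2 highest libraries of all 17, and the P4 treated cultures lay below the vehicle controls but overlapped with the controls. MTHFD1 fell by 0.48 ± 0.098 (SE) on the log2 scale against vehicle controls (adjusted p = 0.00137). Against controls its log2 fold change was -0.13 ± 0.11 (adjusted p = 0.328, 95% interval -0.35 to 0.096) and against Nap only -0.13 ± 0.10 (adjusted p = 0.318), neither of which passed. ZBTB25 overlaps it on the opposite strand with 6082 counts over the 17 libraries, against 14713 for MTHFD1.

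The 3 mitochondrial folate enzymes rose against every reference. MTHFD2 (ENSG00000065911.12, chr2:74198562-74217565, plus strand), the dehydrogenase and cyclohydrolase that is low in most adult tissues and high in tumours and embryos, held 280.4, 253 and 295 CPM in the controls, 291 and 264 CPM in the Nap only cultures and 245, 235 and 242 CPM in the vehicle controls. The P4 treated cultures held 856, 806 and 843 CPM, columns PSAT1 278, 243 and 267 CPM and columns PSAT1_P4 849, 898 and 819.9 CPM. No library of the first 3 groups or of columns PSAT1 reached 806 CPM, the lowest value among P4 treated cultures and columns PSAT1_P4. MTHFD2 rose 3.44-fold against vehicle controls (log2 fold change 1.78 ± 0.060, SE; adjusted p = 1.48e-09), 2.98-fold against controls (adjusted p = 5.09e-10) and 2.95-fold against Nap only (adjusted p = 2.58e-07). The processed pseudogene MTHFD2P7, with 1.63% as many counts, differed by 2.03 ± 0.16 (SE, adjusted p = 7.79e-07) in the first of these comparisons.

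ALDH1L2 (ENSG00000136010.14, chr12:105019784-105084577, minus strand), the formyltetrahydrofolate dehydrogenase of mitochondria, held 152, 121 and 139.8 CPM in the controls, 129.8 and 121 CPM in the Nap only cultures and 115, 148 and 151 CPM in the vehicle controls. It held 316, 338 and 324 CPM in the P4 treated cultures, 145, 123 and 130.5 CPM in columns PSAT1 and 311, 294 and 355 CPM in columns PSAT1_P4. The first 3 groups overlapped, with vehicle control replicate 1 the lowest of all libraries, and the P4 treated cultures lay far above them. ALDH1L2 rose 2.32-fold against vehicle controls (1.21 ± 0.092 on the log2 scale, SE; adjusted p = 6.35e-07), 2.33-fold against controls (adjusted p = 1.72e-08) and 2.55-fold against Nap only (adjusted p = 6.07e-07). C12orf45 overlaps the gene on the opposite strand with 27648 counts over the 17 libraries, against 42552 for ALDH1L2.

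MTHFD1L (ENSG00000120254.15, chr6:150865549-151101887, plus strand), the mitochondrial formate-releasing synthetase, held 73.3, 55.2 and 68.8 CPM in the controls, 67.3 and 59.1 CPM in the Nap only cultures and 67.4, 70.3 and 77.2 CPM in the vehicle controls. Its levels were 109.6, 144 and 131 CPM in the P4 treated cultures, 73.2, 58.8 and 67.3 CPM in columns PSAT1 and 120.0, 129.6 and 149 CPM in columns PSAT1_P4. All P4 treated cultures exceeded the first 3 groups, which overlapped. The rise was 1.76-fold against vehicle controls (0.82 ± 0.095 on the log2 scale, SE; adjusted p = 1.81e-05), 1.92-fold against controls (adjusted p = 2.85e-06) and 1.99-fold against Nap only (adjusted p = 4.58e-05). The processed pseudogene AL133260.1 lies within MTHFD1L on the same strand with 6830 counts, against 19106 for MTHFD1L. Other genes that overlap members, beside those named with each, held at most 854 counts, which NDUFA4L2 had on the strand opposite SHMT2.

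ASNS (ENSG00000070669.17, chr7:97852118-97872542, minus strand), whose promoter stretch is printed above, was the lowest of the 10 in controls on the RPKM scale and the one with the largest difference between P4 treated cells and vehicle controls. It held 4.90, 3.95 and 5.72 CPM in the controls, 5.81 and 5.16 CPM in the Nap only cultures and 9.38, 7.88 and 6.91 CPM in the vehicle controls, from 49 to 107 reads a library. The P4 treated cultures held 32.5, 30.2 and 26.6 CPM, columns PSAT1 5.60, 5.26 and 6.36 CPM and columns PSAT1_P4 30.0, 29.8 and 32.6 CPM. The vehicle controls lay above the controls and Nap only cultures, and the P4 treated cultures far above all of these. ASNS rose 3.75-fold against vehicle controls (log2 fold change 1.91 ± 0.13, SE; adjusted p = 2.84e-07), 6.09-fold against controls (2.61 ± 0.15, adjusted p = 2.38e-10) and 5.32-fold against Nap only (2.41 ± 0.15, adjusted p = 6.95e-07). The unprocessed pseudogene ASNSP1 held 3122 counts over the 17 libraries against 2891 for ASNS. Only uniquely mapped reads were counted, so reads that fit both copies are missing and the split between the 2 is uncertain. ASNSP1 differed by 2.26 ± 0.11 (SE, adjusted p = 2.17e-08) between P4 treated cells and vehicle controls and by 2.35 ± 0.13 (SE, adjusted p = 1.74e-10) against controls.

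Taking the untreated cultures as the reference in place of vehicle controls, 8 of the 10 members were called in P4 treated cells, 7 higher and 1 lower, against 54.8% of all genes tested (26.8% higher and 28.0% lower). With Nap only as the reference it was again 7 higher and 1 lower, against 49.7% of all genes (24.8% higher and 24.9% lower). The 3 comparisons share the P4 treated cultures. PSPH and MTHFD1 were the members that passed against vehicle controls alone. The median log2 fold change of the members was 0.49 against controls and 0.55 against Nap only, with medians of -0.018 and -0.013 over all genes. Leaving out any control or P4 treated culture changed no member's call against controls.

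**Figure D3:**
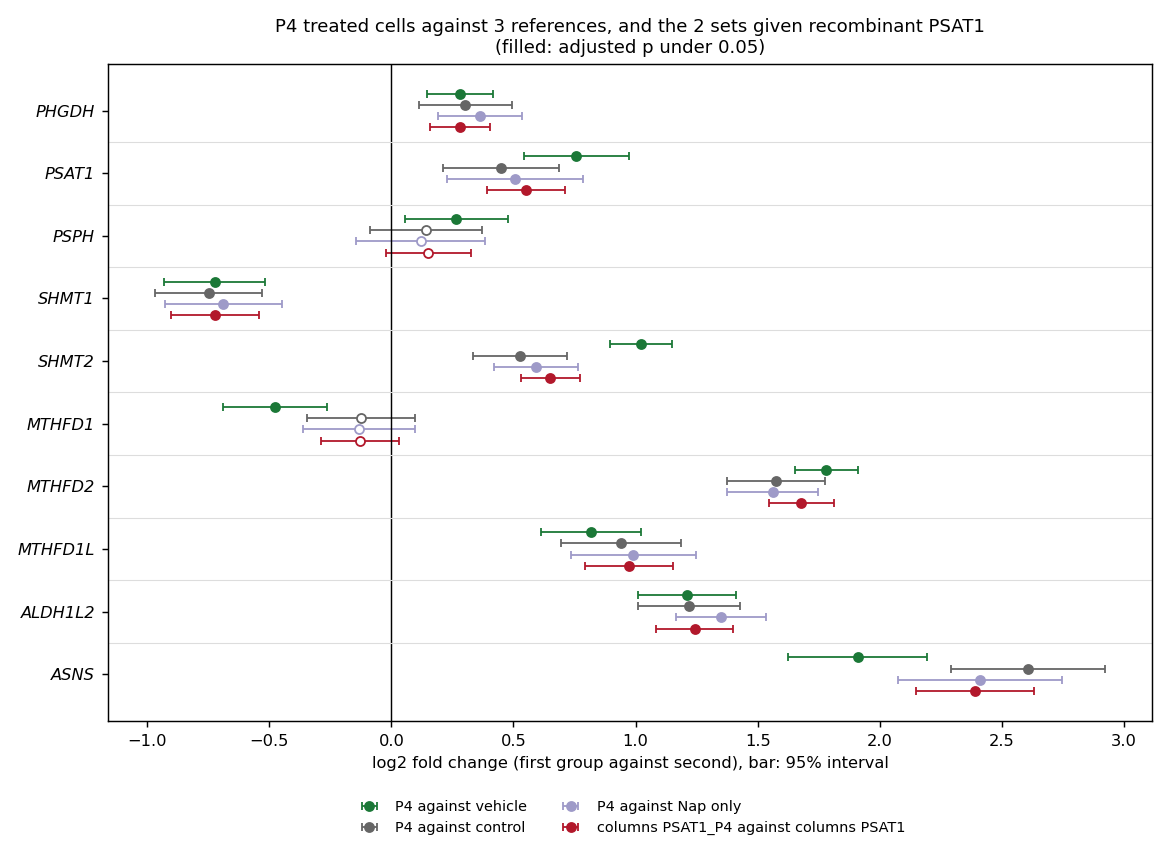
Log2 fold changes (points) with 95% intervals (bars) of the 10 enzymes for P4 treated cells against vehicle controls, controls and Nap only cultures, and for columns PSAT1_P4 against columns PSAT1. Filled points have an adjusted p under 0.05; SHMT2 lies at 1.02 against vehicle controls and at 0.53 to 0.65 in the other 3 comparisons, and ASNS at 1.91 and at 2.39 to 2.61.

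The reference itself moved some members. Between vehicle controls and untreated controls 4 of the 10 were called, 2 higher and 2 lower, against 22.6% of all genes (11.9% higher and 10.7% lower). SHMT2 was lower in vehicle controls, with a log2 fold change of -0.49 ± 0.073 (SE, adjusted p = 8.24e-05) and means of 243 ± 4.42 CPM (SD, n = 3) and 340.0 ± 24.0 CPM (SD, n = 3). PSAT1 was lower too, at -0.30 ± 0.072 (adjusted p = 0.00514). ASNS was higher by 0.71 ± 0.18 (adjusted p = 0.00703) and MTHFD1 by 0.36 ± 0.088 (adjusted p = 0.00554). In SHMT2, PSAT1 and ASNS the 3 vehicle controls and 3 controls did not overlap, while in MTHFD1 vehicle control replicate 1 lay within the controls. MTHFD1 lost its call without vehicle control replicate 2 (0.31, adjusted p = 0.0517). MTHFD2 stood at -0.20 ± 0.073 (adjusted p = 0.0566) and passed in other fits, among them that without control replicate 2 (-0.26, adjusted p = 0.00303). PHGDH, PSPH, SHMT1, MTHFD1L and ALDH1L2 were not called, with intervals from -0.29 to 0.32. ASNSP1 differed by 0.091 ± 0.16 (SE, adjusted p = 0.727) and was not called.

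When Nap only cultures took the place of controls, a comparison added after seeing the data, the same 4 were called and MTHFD2 with them, against 23.8% of all genes. SHMT2 stood at -0.42 (adjusted p = 1.03e-05) and ASNS at 0.52 (adjusted p = 0.0381). Between Nap only and control cultures edgeR called 0 of the 10 members, and none had an unadjusted p under 0.05 or a call by DESeq2. Over all 17166 genes tested the numbers were 0 called (0.00%), 217 with an unadjusted p under 0.05, and 1 called by DESeq2. The members' 95% intervals ran from -0.34, in ALDH1L2, to 0.62, in ASNS.

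**Figure D4:**
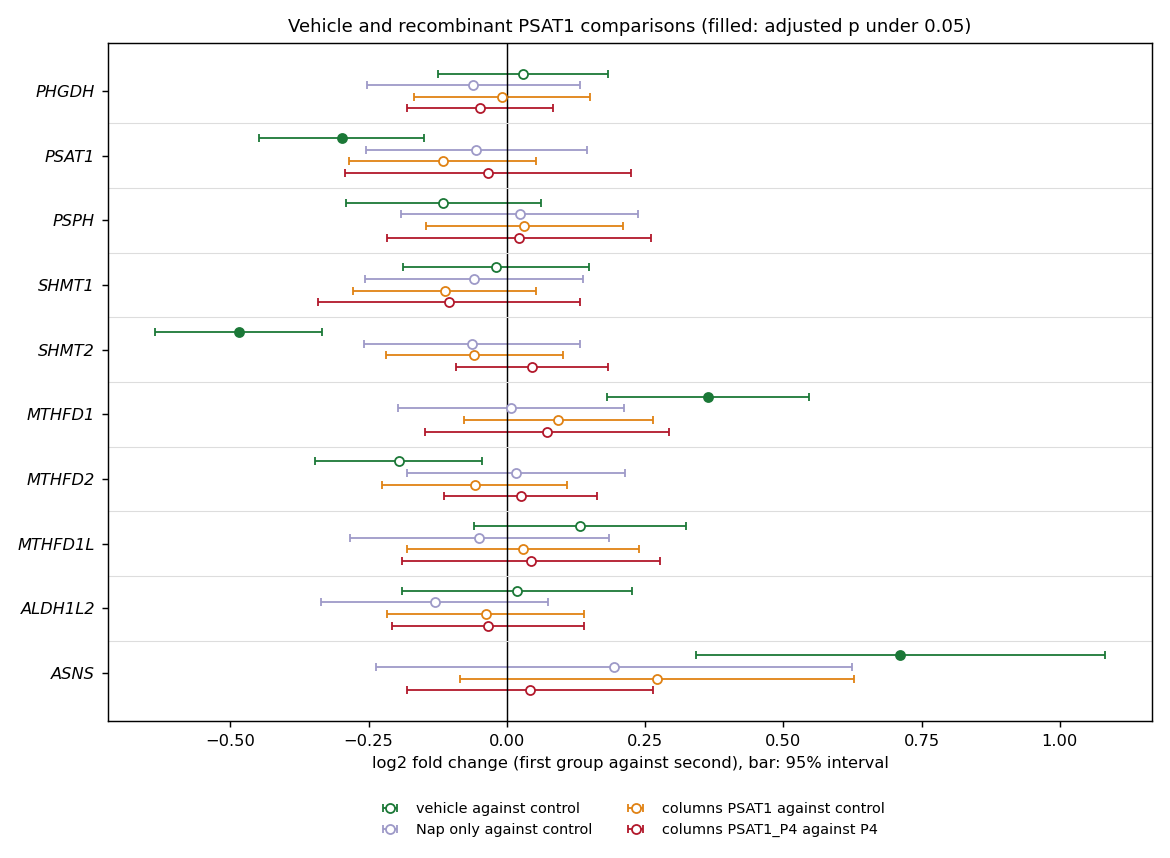
Log2 fold changes (points) with 95% intervals (bars) of the 10 enzymes for vehicle controls, Nap only cultures and columns PSAT1 against controls, and for columns PSAT1_P4 against P4 treated cells. Filled points, with an adjusted p under 0.05, are SHMT2, PSAT1, MTHFD1 and ASNS in vehicle controls against controls, and no point is filled in the other 3 comparisons.

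The cultures given recombinant PSAT1 bear on whether the added protein alters these transcripts, but which set also had P4 is in dispute. By column name, columns PSAT1 against controls compares the protein alone with medium, and by sample title the protein with P4. These comparisons therefore cannot assign an effect to the protein alone or with P4. Between columns PSAT1 and controls, edgeR called 0 of 10 members, with 0 at an unadjusted p under 0.05 and 0 by DESeq2. Over all genes it called 0 (0.00%), with 1004 at an unadjusted p under 0.05 and 0 by DESeq2. The transcript of PSAT1 itself differed by -0.12 ± 0.082 (SE, 95% interval -0.29 to 0.053), and its RNA in the cells is distinct from the protein added. ASNS differed by 0.27 ± 0.17 (95% interval -0.085 to 0.63) and SHMT1 by -0.11 ± 0.080 (95% interval -0.28 to 0.053). The intervals of the 10 members ran from -0.29, in PSAT1, to 0.63, in ASNS, and a p that misses the threshold does not show that the groups were alike.

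Columns PSAT1_P4 differed from columns PSAT1 in 8 of the 10 members, 7 higher and 1 lower, against 62.3% of all genes tested (30.7% higher and 31.6% lower). ASNS was 5.25-fold higher in columns PSAT1_P4 (log2 fold change 2.39 ± 0.12, SE; adjusted p = 1.39e-12) and MTHFD2 3.20-fold (1.68 ± 0.064, adjusted p = 3.81e-14). ALDH1L2 was 2.36-fold higher, MTHFD1L 1.96-fold and SHMT2 1.57-fold (adjusted p = 5.20e-11, 1.45e-08 and 1.00e-08). PSAT1 was 1.47-fold and PHGDH 1.21-fold higher (adjusted p = 4.89e-06 and 3.44e-04). SHMT1 was lower, at -0.72 ± 0.086 on the log2 scale (adjusted p = 5.39e-07). PSPH at 0.15 ± 0.084 (adjusted p = 0.123) and MTHFD1 at -0.13 ± 0.077 (adjusted p = 0.155) did not pass. Without columns PSAT1_P4 replicate 3, MTHFD1 passed (-0.20, adjusted p = 0.0299), as it did with upper-quartile normalisation (-0.23), which brought PHGDH down to 0.18. ASNSP1 differed by 2.59 ± 0.11 (SE, adjusted p = 1.89e-13).

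Against untreated controls, columns PSAT1_P4 had 8 members called, 7 higher and 1 lower, against 60.2% of all genes (30.0% higher and 30.2% lower). MTHFD2 stood at 1.62 ± 0.091, ASNS at 2.67 ± 0.14, PSAT1 at 0.43 ± 0.091 and SHMT1 at -0.83 ± 0.099 (SE, log2 scale, adjusted p = 8.04e-16, 1.08e-16, 1.40e-04 and 1.50e-08). PHGDH, at 0.27 ± 0.084 (adjusted p = 0.00644), was lost with upper-quartile normalisation (0.18, adjusted p = 0.0622). Against P4 treated cells, columns PSAT1_P4 had 0 of 10 members called by edgeR, 0 at an unadjusted p under 0.05 and 0 by DESeq2. Over all genes these numbers were 0 (0.00%), 199 and 0. The log2 differences were -0.034 ± 0.12 for PSAT1, 0.025 ± 0.063 for MTHFD2 and 0.042 ± 0.10 for ASNS (SE), and all 10 intervals lay within -0.34 to 0.29.

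Whether the difference between the 2 sets given recombinant PSAT1 was as large as that between P4 treated cells and vehicle controls was tested as a difference of differences, read by column name, in which no culture serves on both sides. SHMT2 alone among the 10 was called, with a difference of differences of -0.36 ± 0.079 (SE) on the log2 scale (95% interval -0.53 to -0.20, adjusted p = 0.0242), against 1.41% of all genes (1.13% above 0 and 0.282% below 0). Its log2 fold change was 0.65 between the columns and 1.02 between P4 treated cells and vehicle controls, the group in which SHMT2 stood lowest. The call was lost in 7 of the 12 fits that left out 1 culture: without any one of the vehicle controls (adjusted p = 0.0572, 0.0877 and 0.0711), P4 treated replicate 3 (0.0958), columns PSAT1 replicate 1 or 3 (0.0537 and 0.0913) and columns PSAT1_P4 replicate 3 (0.0877). With Nap only in place of vehicle controls SHMT2 stood at 0.051 (adjusted p = 0.992). MTHFD1 at 0.36 ± 0.13 (adjusted p = 0.173) and ASNS at 0.49 ± 0.18 (adjusted p = 0.178) did not pass, and MTHFD1 passed without P4 treated replicate 2 (0.44, adjusted p = 0.0461). For MTHFD2 the interval was -0.27 to 0.084, for ALDH1L2 -0.23 to 0.31, for PSAT1 -0.51 to 0.11 and for SHMT1 -0.26 to 0.27. Read by sample title the contrast between the 2 sets turns its sign, so the 2 differences add up. All 10 members were then called, 8 of them lower and SHMT1 and MTHFD1 higher, for example MTHFD2 at -3.49 (adjusted p = 3.15e-18). Over the alternatives of this contrast up to 11886 of 17363 genes were called, so the 10 calls are not read as a result about the members.

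Across all 17 libraries, the P4 treated cultures and columns PSAT1_P4 lay apart from the other 11 libraries in 8 members. For ASNS these 6 libraries lay between 26.6 and 32.6 CPM and the other 11 between 3.95 and 9.38 CPM. The gap was narrowest, as a ratio, in PSAT1, with 335 CPM as the lowest of the 6 and 301 CPM as the highest of the 11, and in PHGDH, with 203 and 181 CPM. PSPH and MTHFD1 overlapped. The share of all genes that lie apart in this way was not counted, so the 8 members are not read as a trait of these enzymes. Between columns PSAT1_P4 and columns PSAT1, 62.3% of all genes tested were called. In the order of group means, P4 treated cells and columns PSAT1_P4 were neighbours whose ranges overlapped in all 10 members. Controls, Nap only cultures and columns PSAT1 also overlapped with their neighbours among these 3 in 8 members. The exceptions were SHMT1, in which columns PSAT1 (43.4 ± 1.37 CPM (SD, n = 3)), Nap only (45.2 ± 0.403 CPM (SD, n = 2)) and controls (47.3 ± 1.79 CPM (SD, n = 3)) did not overlap, and MTHFD1, with one between Nap only (63.0 ± 0.215 CPM (SD, n = 2)) and columns PSAT1 (66.6 ± 2.86 CPM (SD, n = 3)). Vehicle controls stood apart at the low end in PSAT1 and SHMT2 and, in ASNS, between the other 8 libraries and the 6 high ones. In MTHFD1 they had the highest mean, and their lowest library lay within the controls.

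Correlations of log2(CPM + 1) over the 17 libraries, which share treatment groups and so are given as a description, were highest between MTHFD1L and ALDH1L2 (Pearson r = 0.98) and between MTHFD2 and ALDH1L2 (r = 0.97). ASNS had r = 0.96 with MTHFD2, and PHGDH r = 0.93 with ALDH1L2. PSAT1 had r = 0.92 with MTHFD2 and 0.87 with PSPH. SHMT1 ran opposite to the rising members, with r = -0.96 against MTHFD2. MTHFD1 had its lowest r with SHMT2 (-0.69) and PSAT1 (-0.68), the members that stood low in vehicle controls, where MTHFD1 stood high. Among 9430 genes compared, those nearest to PSAT1 in this measure over the 17 libraries were RSL24D1 (r = 0.96), GTF2H3, NARS, GTF2H1 and MAL2 (r = 0.95). Nearest to ASNS were DOCK11 (r = 0.99), PPM1E, CSRNP2, DCAF10 and PABPC1L (r = 0.99).

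Genes of the related pathways moved in both directions. Of the other folate enzymes and carriers, 2 higher and 6 lower of 17 tested were called in P4 treated cells against vehicle controls, beside 26.6% and 26.5% of all genes, with a median log2 fold change of -0.12 against -0.013 for all genes. ALDH1L1, the cytosolic counterpart of ALDH1L2, rose by 2.43 (adjusted p = 1.87e-07) and FPGS, which adds glutamates to folate, by 0.32 (adjusted p = 0.0258). The folate transporters SLC46A1 and SLC19A1 stood at -0.94 (adjusted p = 1.43e-05) and -0.97 (adjusted p = 2.74e-05). Against controls the list had 4 higher and 8 lower of 17, beside 54.8% of all genes called, and between columns PSAT1_P4 and columns PSAT1 2 higher and 8 lower of 17, beside 62.3%, with ALDH1L1 at 2.26 and 2.40 and SLC46A1 at -0.92 and -0.99. Vehicle controls against controls gave 3 higher and 3 lower of 17, beside 22.6%. MTHFD2L, the close relative of MTHFD2, was not called in any of these 4 comparisons (-0.093 against vehicle controls, adjusted p = 0.416).

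The remaining lists were compared between P4 treated cells and vehicle controls, where 53.0% of all genes were called. Of the glycine cleavage system, which takes a carbon unit from glycine in mitochondria, 0 higher and 1 lower of 3 tested were called, the lower being its decarboxylase GLDC at -1.27 (adjusted p = 1.39e-05). GLDC stood at -1.25 against controls and -1.38 between columns PSAT1_P4 and columns PSAT1. The methionine cycle and transsulfuration list had 5 higher and 2 lower of 9 (median log2 fold change 0.38), with AHCYL1 at 0.80 (adjusted p = 6.44e-07) and CBS, which condenses serine with homocysteine, at 0.84 (adjusted p = 3.20e-04). MAT2A, which makes S-adenosylmethionine, stood at -0.69 (adjusted p = 1.31e-05) and AHCY at -0.48 (adjusted p = 4.88e-04). The list of other amino acid synthesis and nitrogen donors had 5 higher and 5 lower of 16 (median 0.050). GOT1, the cytosolic aminotransferase that interconverts aspartate and oxaloacetate, stood at 1.23 (adjusted p = 1.06e-07) and PYCR1 of proline synthesis at 0.73 (adjusted p = 2.10e-06). ASRGL1, which breaks down asparagine, stood at -0.58 (adjusted p = 5.19e-04) and ALDH18A1 of proline synthesis at -0.37 (adjusted p = 3.86e-04). FTCD, AMT, GNMT, BHMT, GPT, SDS, AGXT and AGXT2 did not pass the filter on low counts in this comparison. All 6 regulators listed beside the enzymes were called higher on P4 against vehicle controls, ATF4 by 0.50 (adjusted p = 4.29e-05), CEBPG by 2.13 (adjusted p = 1.66e-09) and TRIB3 by 4.34 (adjusted p = 1.14e-10). Between columns PSAT1_P4 and columns PSAT1, ATF4 stood at 0.49 and CEBPG at 2.17. In vehicle controls against controls, 2 of the 6 regulators were called higher and 4 were not called, beside 22.6% of all genes. The 2 were DDIT3 at 0.94 (adjusted p = 1.09e-04) and CHAC1 at 0.56 (adjusted p = 0.00646).

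**Figure D5:**
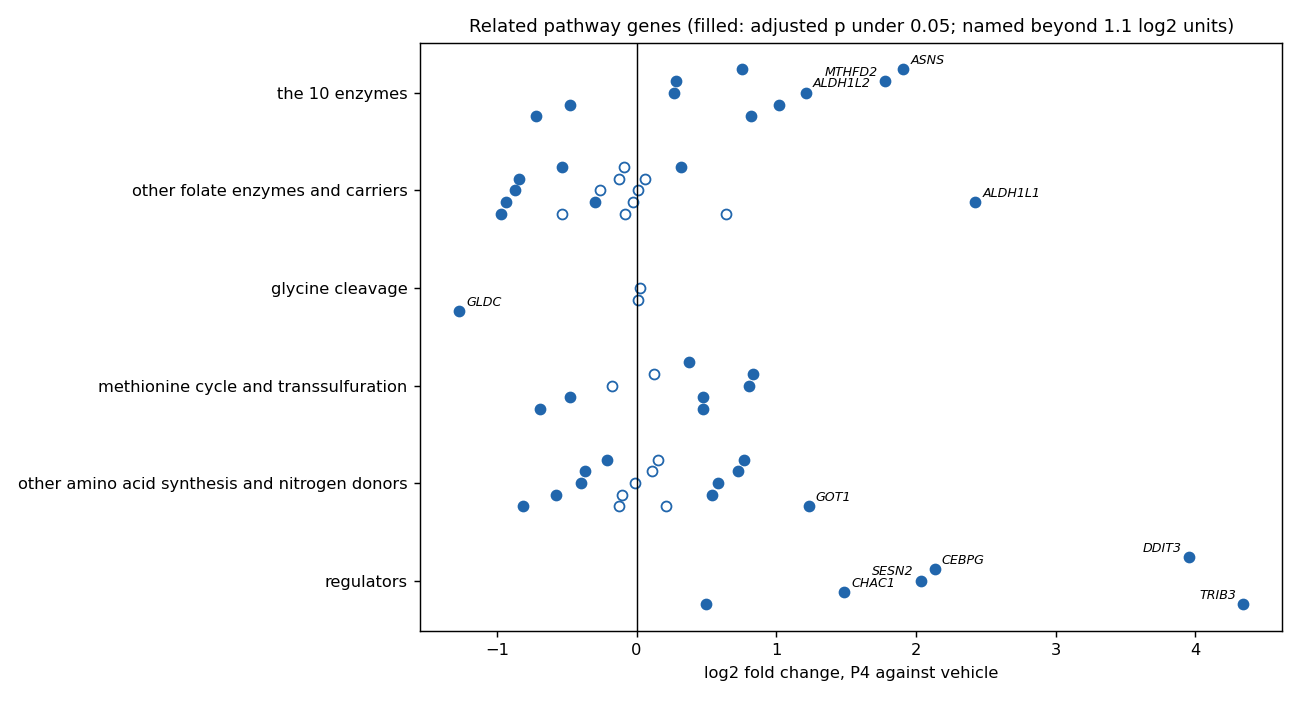
Log2 fold changes of P4 treated cells against vehicle controls, 1 point per gene tested, for the 10 enzymes and 5 lists of related genes, with filled points for an adjusted p under 0.05. ALDH1L1 stands apart at 2.43 among folate genes, most of whose called members lie below 0, and the regulators lie between 0.50 and 4.34.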

How the data were processed

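Single-end RNA-seq libraries of total RNA from 17 Ishikawa cultures were analysed. Column names and sample labels tied each column to a sample, and 0 columns were left unused. Before deposit, the authors trimmed adapters (Cutadapt), removed reads of low quality, and aligned the remainder with Subread, retaining reads with a single best position. The deposited values are whole-number read counts for each gene of GENCODE release 31 (featureCounts) and carry no normalization. Tool versions and the strand setting are not given in the sources used here. Genes with near-identical copies, such as pseudogenes, can lose reads under this counting. The study tested pairs of groups with DESeq2.

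Differences were computed with edgeR 4.0.16 (R 4.3.3) on the groups compared, using TMM factors, filterByExpr (minimum count 10) and a robust quasi-likelihood fit with a two-sided test. P-values were adjusted by Benjamini-Hochberg over all genes tested, and a gene was called at an adjusted p under 0.05. The common dispersion of P4 treated cells and vehicle controls was 0.00635. SE is the log2 fold change over the square root of F, and 95% intervals used the t distribution with the degrees of freedom of edgeR. RPKM was computed here from the exon length in GENCODE 29 on GRCh38. Of the 60662 genes, 43963 have the same identifier version there, 14614 another version, 2064 only a symbol from a gene name table, and 21 no symbol. Promoter windows came from RefSeq.

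The members, lists and alternatives were chosen with earlier results of these data known. The rule named all 10 members, the pseudogenes and overlapping genes of members, per list and direction the 2 genes of lowest adjusted p for P4 against vehicle controls, and the 5 protein-coding genes of mean CPM of at least 10 most correlated with PSAT1 and with ASNS. One gene of the list of other folate enzymes and carriers is not reported here and is left out of its counts. MTHFD2L, ATF4, DDIT3, CHAC1 and the marker genes singled out were named after their values were seen. Alternatives were DESeq2 1.42.0, RLE or upper-quartile scaling, no filter on low counts, a minimum of 10 counts per library, a fit of all 6 groups, a replicate block, leaving out each culture, the reading of columns by sample title, and Nap only as the reference. For vehicle controls, the Nap only reference and a fit of the 4 groups without PSAT1 were added after seeing the data. Tables were built in Python 3.11.15 (pandas 2.3.3, numpy 2.4.6, scipy 1.17.1). The P4 against vehicle fit was also run on counts simulated at the common dispersion, with 200 genes changed. It recovered 78.6% of genes changed 1.5-fold and 88.7% of those changed 2-fold, and called 0.049% of unchanged genes. Since 53.0% of genes were called in the real comparison, the simulation does not check scaling there, nor differences below 1.5-fold. The labels call the cultures biological replicates.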

Additional observations from a re-analysis of the deposited data

Results flagged for a closer look

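SHMT2 was the member whose P4 difference and difference between the sets given recombinant PSAT1 were unequal by a test of the difference itself. The difference of differences was -0.36 ± 0.079 (SE) on the log2 scale (edgeR, adjusted p = 0.0242), from 0.65 between columns PSAT1_P4 and columns PSAT1 and 1.02 between P4 treated cells and vehicle controls. Mean SHMT2 was 243 ± 4.42 CPM (SD, n = 3) in vehicle controls and 324 ± 7.85 CPM (SD, n = 3) in columns PSAT1, and 498 ± 17.4 CPM (SD, n = 3) in P4 treated cells and 518 ± 23.9 CPM (SD, n = 3) in columns PSAT1_P4. The call was lost in 7 of the 12 fits that left out 1 culture, among them those without any one of the vehicle controls, and the value with Nap only in place of vehicle controls was 0.051 (adjusted p = 0.992). Groups of 2 or 3 libraries were not searched for outlying samples.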

How the results depend on the processing

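The numbers of members called kept within 1.5 times of those reported, under every alternative run, in the 9 comparisons of a pair of groups. Of the 46 member results called there 0 changed sign in any alternative, while 21 of the 44 not called did. Calls that were lost or gained were those of PSPH, PSAT1, MTHFD1, MTHFD2 and PHGDH given above, and the cause was not tested.

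The exception was the difference of differences, with 1 member called. Leaving out 1 culture gave 0 to 2 members, the Nap only reference 0, and the reading by sample title 10 by construction, since it turns the sign of the contrast between the sets given recombinant PSAT1. By title the log2 values of the members that turned were PHGDH -0.59, MTHFD1L -1.82, ALDH1L2 -2.48 and ASNS -4.33. With the Nap only reference, which replaces 3 vehicle controls by 2 cultures, they were PHGDH -0.091, PSAT1 0.038, PSPH 0.024, SHMT1 -0.041, SHMT2 0.051, MTHFD1 -0.0045, MTHFD2 0.11, MTHFD1L -0.026, ALDH1L2 -0.12 and ASNS -0.026. With upper-quartile normalization they were PHGDH -0.011 and SHMT1 -0.011, without a filter PHGDH -0.040, SHMT1 -0.039 and ALDH1L2 -0.0071, and with at least 10 counts in every library PHGDH -0.011 and SHMT1 -0.010, none of them called. Over the fits that each left out 1 culture, members that turned ran from PHGDH -0.013 to 0.044, SHMT1 -0.048 to 0.080 and ALDH1L2 -0.040 to 0.15, and for columns PSAT1_P4 against P4 treated cells PSAT1 -0.15 to 0.10, MTHFD2 -0.0054 to 0.057 and ASNS -0.037 to 0.11, with 7 members turning there in all and none called.

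The replicate numbers did not pair the cultures in any comparison with 3 pairs, since correlations of same-numbered deviations from the group means were not all above 0.1 (P4 against vehicle controls -0.041 to 0.053), and in the pair of Nap only and control cultures they were 0.31 and 0.35. With the replicate block the members called were the same in number in all 10 comparisons (10 for P4 against vehicle controls and 1 for the difference of differences), and genes called in all were 8934 against 8774 for P4 against vehicle controls, 42 against 0 for Nap only and 29 against 0 for columns PSAT1 against controls. Upper-quartile normalization moved the median of all genes for P4 against vehicle controls from -0.013 to -0.10. Over all alternatives the genes called ran from 1908 to 4360 for vehicle controls against controls and from 1 to 11886 for the difference of differences. ASNS had as few as 49 reads in a library, in vehicle control replicate 1, and its interval was the widest of the 10 in 9 of 10 comparisons.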
